A study of Mus musculus with 9 samples.

Results

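Receptors for the Fc end of antibodies, with the adaptors and the kinase that carry their signal, were followed across 3 mouse myeloid cell lines. The 8 genes were chosen by symbol, out of 54347 genes listed: *Fcgr1*, *Fcgr2b*, *Fcgr3* and *Fcgr4* (receptors for IgG), *Fcgrt* (the neonatal Fc receptor), *Fcer1g* and *Tyrobp* (signalling adaptors) and *Syk* (the kinase the adaptors recruit). Hox-WT and Hox-URE are hematopoietic progenitor lines made by immortalizing c-Kit+ progenitors with Hoxb8, Hox-WT from a WT mouse and Hox-URE from a UREd/d mouse, which lacks an enhancer of *Spi1*, called the upstream regulatory element (URE). *Spi1* encodes PU.1, a transcription factor of myeloid cells. URE-AML (labelled B22) is an AML blast-like line grown from leukemic blasts of a UREd/d mouse. All 3 lines were kept in the same medium with FCS, IL-3, IL-6, SCF and β-estradiol. Each line had 3 libraries of poly-A RNA. Since each genotype and stage was 1 line, differences are between lines, genotype and line cannot be told apart, and no label says that a line was sampled from separate cultures, so p-values measure only the spread between these libraries.

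An Fc receptor binds the constant end of an antibody and so lets a phagocyte, mast cell or basophil respond to what the antibody has bound. Activating IgG receptors in the mouse have no signalling motif of their own and pair with the Fc receptor γ chain, the product of *Fcer1g*, whose ITAM motif is phosphorylated by Src family kinases and then binds SYK. FCGR2B is the inhibitory IgG receptor, carries an ITIM motif and recruits the phosphatase SHIP1. TYROBP (DAP12) is an ITAM adaptor for other myeloid receptors. FCGRT works apart from this pathway: together with β2-microglobulin it carries IgG out of endosomes and spares it from breakdown.

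Values are estimated read counts and CPM, which are counts scaled to library size and composition. Total counts ran from 20331064 to 28588718 per library, at which a floor of 3 counts corresponded to 0.104 to 0.153 CPM, which covers counting error only. *Spi1* stood at 110, 101 and 96.5 CPM in Hox-WT, at 0.036, 0.041 and 0 CPM in Hox-URE and at 2.50, 5.52 and 6.35 CPM in URE-AML, lowest in Hox-URE and intermediate in URE-AML. Markers of other myeloid cells also moved between the lines, and their part in the results below was not tested. The 10 mast cell and basophil markers summed to 607 to 927 CPM for Hox-WT, 1803 to 6367 for Hox-URE and 43.5 to 78.6 for URE-AML, with *Fcer1a*, the IgE-binding chain, at 0 in both Hox lines. The 12 neutrophil markers summed to 5823 to 9228, 2724 to 4104 and 11641 to 26488 CPM in the same order, with *S100a9* and *Ltf* at 0 in Hox-URE. The Hox-URE sum was almost all *Ctsg* (2482 to 3858 CPM, not called), and 10 of the 12 were called lower there, among them *Mpo*, at 5040 ± 1515 CPM for Hox-WT and 5.04 ± 4.44 for Hox-URE. In URE-AML 10 of the 12 were called higher, but *Mpo* was lower (192 ± 19.0 CPM). The 10 monocyte and macrophage markers summed to 355 to 390, 846 to 946 and 123 to 332 CPM. That list holds *Fcgr1* itself. In Hox-URE its sum was almost all *Ccr2* (840 to 938 CPM), while 6 of the 8 markers tested were called lower, among them *Adgre1*, which encodes F4/80 and made up most of the Hox-WT sum (274 ± 5.201 CPM, against 1.43 ± 1.22 in Hox-URE and 3.73 ± 3.52 in URE-AML). *Csf1r* and *Klf4*, at 0 in Hox-URE, were already low in Hox-WT. In URE-AML 4 of the 8 were called lower and 1, *Cd14*, higher. The 6 B cell markers reached at most 50.5 CPM and the 7 T and NK cell markers at most 43.3 CPM in any library. In bulk RNA, fewer cells that express a gene and less RNA per cell cannot be told apart.

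Which of these genes differed between the UREd/d progenitor line and the WT line was asked first. In Hox-URE, *Fcgr1*, *Fcgr2b*, *Fcgr4*, *Tyrobp* and *Syk* were lower than in Hox-WT and *Fcer1g* was higher, while *Fcgr3* and *Fcgrt* did not pass the test. With a call defined as a fold change above 1.5 with an adjusted p below 0.05 in edgeR's quasi-likelihood test, 6 of the 8 genes were called, 1 higher and 5 lower. Over all 13082 genes tested 37.2% were called, 21.3% higher and 15.9% lower. Libraries of the 2 lines did not overlap for 6 of the 8 genes (5 lower), against 60.3% of all genes tested (29.4% lower). For the 8 genes the log2 fold change had a median of -4.19, or -4.24 with genes near 0 counts set at their bound or counting ratio, against 0.00 for all genes tested. All 8 genes passed the filter on low counts, but *Fcgr1* and *Tyrobp* did so through Hox-WT alone and *Fcgr2b* and *Fcgr4* through lines other than Hox-URE, so these counts describe the genes and are not support for a shared direction.

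URE-AML against Hox-WT had the same control libraries, so the 2 comparisons are not independent. There *Fcgr1*, *Fcgr2b*, *Tyrobp* and *Syk* were lower, and *Fcgrt* and *Fcgr4* were higher. Here too 6 of the 8 genes were called, 2 higher and 4 lower, against 43.2% of all genes tested (23.0% higher, 20.2% lower), with a median of -1.15. Libraries did not overlap for 7 of the 8 (2 higher, 5 lower), against 67.6% of all genes tested (34.4% higher, 33.2% lower). Between the UREd/d lines, *Fcgr2b*, *Fcgr4* and *Tyrobp* were above Hox-URE in URE-AML and *Fcer1g* was below. That made 4 of the 8 genes, 3 higher and 1 lower, against 42.7% of all genes tested (20.3% higher, 22.4% lower). Libraries did not overlap for 5 of the 8 (4 higher), against 62.8% of all genes tested (31.8% higher). Their median there was 1.05, or 1.37 with bounds and counting ratios.

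**Figure D1:**
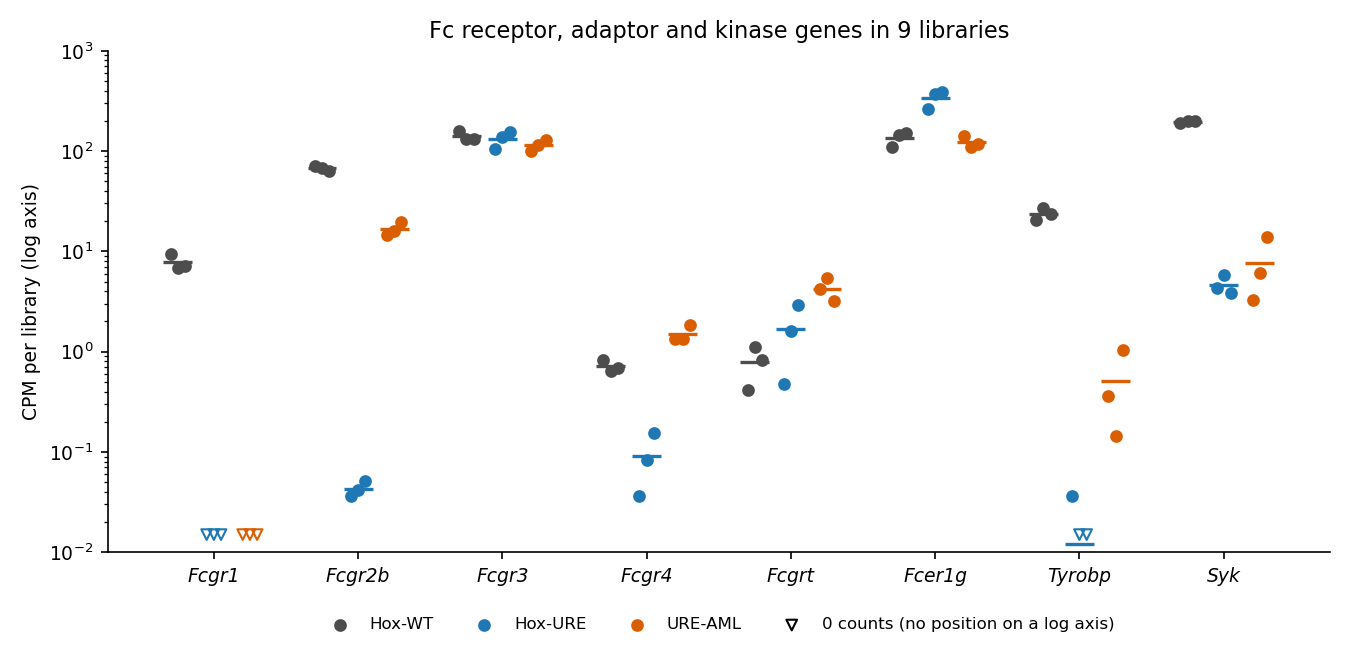
CPM of each gene on a log axis. Each point is a library (grey for Hox-WT, blue for Hox-URE, orange for URE-AML), each bar is the mean of 3 libraries and open triangles are libraries with 0 counts. *Fcgr3* lies between 101 and 157 CPM in all 9 libraries, while *Fcgr1* has counts only in Hox-WT and *Fcer1g* is highest in the 3 Hox-URE libraries.

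*Fcgr1* encodes the high-affinity IgG receptor and lies on the minus strand of chromosome 3 (chr3:96282909-96293969, GRCm38). It had 251, 189 and 209 counts in the Hox-WT libraries (9.41, 6.75 and 7.23 CPM). All 6 UREd/d libraries had 0 counts. At a floor of 3 counts per library Hox-URE lay at least 60.5-fold lower (adjusted p = 2.93e-05) and in URE-AML it was at least 59.6-fold lower (adjusted p = 2.02e-05).

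*Fcgr2b*, the inhibitory receptor gene, had 1903, 1920 and 1828 counts in Hox-WT, 1 count in each Hox-URE library and 364, 334 and 462 counts in URE-AML. On the CPM scale Hox-WT was at 67.7 ± 4.12, Hox-URE at 0.0430 ± 0.00745 and URE-AML at 16.8 ± 2.68 (mean ± SD, n = 3). The 3 lines did not overlap, and only in Hox-URE was the gene at the level of single reads. The ratio of counts between Hox-URE and Hox-WT was 1604-fold, with Hox-URE the lower (95% counting interval 549 to 7780, adjusted p = 3.16e-09). URE-AML fell by 2.01 ± 0.12 on the log2 scale against Hox-WT (SE, adjusted p = 3.95e-07) and was 398-fold higher than Hox-URE (136 to 1934, adjusted p = 3.98e-09).

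*Fcgr3*, the low-affinity activating receptor gene, did not follow *Fcgr2b* and *Fcgr4*, which lie near it on chromosome 1. Its CPM were 157, 133 and 132 in Hox-WT, 104, 137 and 156 in Hox-URE and 101, 115 and 129 in URE-AML. The Hox-URE libraries overlapped Hox-WT and reached below it, and all URE-AML libraries lay under the lowest Hox-WT library. Neither comparison with Hox-WT passed the test: the log2 fold change was -0.09 ± 0.15 in Hox-URE (95% interval -0.43 to 0.25, adjusted p = 0.657) and -0.29 ± 0.15 in URE-AML (-0.63 to 0.05, adjusted p = 0.125). Of all genes tested, 33.2% likewise had all URE-AML libraries under all Hox-WT libraries. URE-AML and Hox-URE differed by -0.20 ± 0.15 (-0.54 to 0.13, adjusted p = 0.274).

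*Fcgr4*, an activating receptor gene found in the mouse on monocytes and neutrophils, was low throughout. It had 22, 18 and 20 counts in Hox-WT, 1, 2 and 3 counts in Hox-URE and 33, 28 and 43 counts in URE-AML. The 3 lines did not overlap, but the largest value was only 1.84 CPM. The ratio of counts put Hox-URE 8.51-fold below Hox-WT (3.69 to 24.1, adjusted p = 0.000529) and URE-AML 17.9-fold above Hox-URE (7.93 to 49.8, adjusted p = 4.48e-05). The rise in URE-AML over Hox-WT, 1.06 ± 0.36 on the log2 scale (adjusted p = 0.0278), lost its call under 7 of 18 alternatives. It was lost without Hox-WT library 1, 2 or 3 (adjusted p = 0.0557, 0.0970 and 0.0947) and without URE-AML library 2 or 3 (0.0525 and 0.110).

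**Figure D2:**
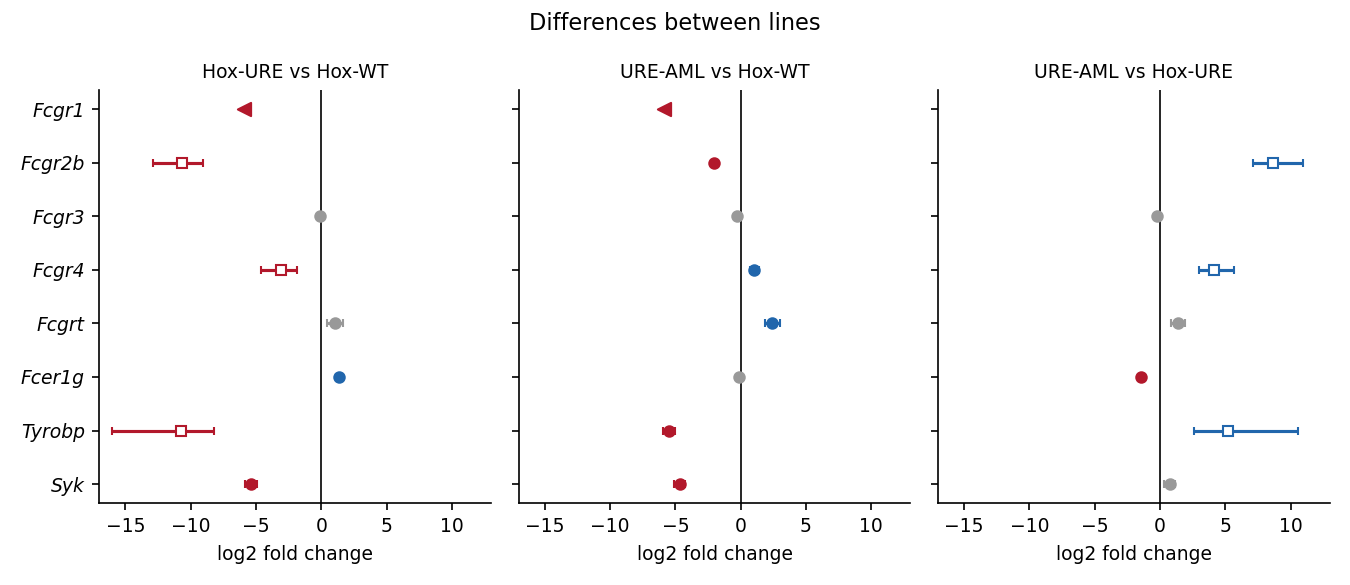
Log2 fold change of each gene in the 3 comparisons of lines. Filled points are fitted values with SE bars, open squares are ratios of counts with 95% counting intervals where a line had at most 3 counts in each library, and triangles are bounds against a line at 0 counts (blue, called higher; red, called lower; grey, not called). *Fcgr3* is grey in all 3 panels, and no point is drawn for *Fcgr1* between the UREd/d lines, which were both at 0.

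The balance of inhibitory to activating receptor RNA was taken as *Fcgr2b* in percent of *Fcgr2b* plus *Fcgr3* counts, since antibodies used to gate granulocyte-monocyte progenitors bind both proteins. In Hox-WT *Fcgr2b* made up 31.2% (95% Wilson interval 30.1 to 32.4), 34.0% (32.8 to 35.3) and 32.3% (31.1 to 33.6). In Hox-URE its single counts amounted to 0.0349% (0.00617 to 0.198), 0.0302% (0.00532 to 0.171) and 0.0327% (0.00578 to 0.185). In URE-AML it made up 12.7% (11.6 to 14.0), 12.2% (10.99 to 13.4) and 13.3% (12.2 to 14.5). The mean share was therefore 32.5 ± 1.39% for Hox-WT, 0.0326 ± 0.00239% for Hox-URE and 12.7 ± 0.567% for URE-AML (SD, n = 3), with no overlap between lines. No test was run on the share. Scaled by transcript length, with the deposited counts taken as unscaled, the means were 29.6%, 0.0284% and 11.3%.

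**Figure D3:**
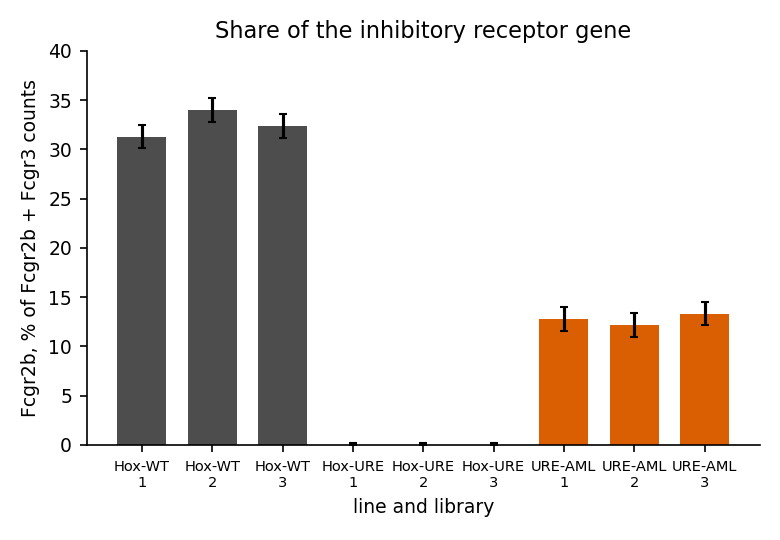
*Fcgr2b* in percent of *Fcgr2b* plus *Fcgr3* counts in each library, with 95% Wilson intervals that cover counting error only. The bars stand at 31.2 to 34.0% in Hox-WT, at 12.2 to 13.3% in URE-AML and close to 0 in Hox-URE.

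The split of reads between these genes has a limit, because parts of their transcripts are alike. Of the 1627 distinct 31-base words in *Fcgr3* transcripts, 233 (14.3%) also occur in *Fcgr2b*. Of the 3632 words in *Fcgr2b*, 324 (8.92%) occur in *Fcgr3* or in other genes. Even so, no more than 1 count per library was assigned to *Fcgr2b* in Hox-URE beside 2861 to 3315 counts for *Fcgr3*. *Fcgr1*, *Fcer1g*, *Fcgrt* and *Tyrobp* shared no such word with another gene, and *Fcgr4* and *Syk* shared 1.31% and 0.0496%.

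The set of RefSeq promoter windows used here (GRCm38.p6, from 250 bases before to 50 bases after the start) covered 7 of the 8 genes, in 9 windows. It held none for *Tyrobp*. The windows were searched on both strands for GAGGAA (reverse TTCCTC), the core letters that PU.1 often binds, and for TGTGGT (reverse ACCACA), the letters that RUNX factors often bind. The motifs share no overlap in these windows. The PU.1-type letters were found in *Fcgr1*, *Fcgr3*, *Fcgr4* and *Syk* (the second of its windows), and not in the windows of *Fcgr2b*, *Fcer1g* and *Fcgrt*. Of all 32817 promoter windows, 28.3% hold them. A match describes letters in this window and neither its presence nor its absence says that the factor binds. A pair of genes with the letters and a pair without are shown, 1 gene of each pair at or near 0 counts in Hox-URE (*Fcgr1*, *Fcgr2b*) and 1 not (*Fcgr3*, *Fcer1g*), so that the letters can be read beside the levels. They are printed 5′ to 3′ on the strand of the gene, with the PU.1-type letters in capitals.

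Fcgr1 (chr3:96293920-96294219, minus strand): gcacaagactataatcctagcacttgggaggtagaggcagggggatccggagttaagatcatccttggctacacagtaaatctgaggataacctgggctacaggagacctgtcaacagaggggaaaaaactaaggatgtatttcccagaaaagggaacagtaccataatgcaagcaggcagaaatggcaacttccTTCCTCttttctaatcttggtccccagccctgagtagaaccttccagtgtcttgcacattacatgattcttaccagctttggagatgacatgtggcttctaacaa

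Fcgr2b (chr1:170976022-170976321, minus strand): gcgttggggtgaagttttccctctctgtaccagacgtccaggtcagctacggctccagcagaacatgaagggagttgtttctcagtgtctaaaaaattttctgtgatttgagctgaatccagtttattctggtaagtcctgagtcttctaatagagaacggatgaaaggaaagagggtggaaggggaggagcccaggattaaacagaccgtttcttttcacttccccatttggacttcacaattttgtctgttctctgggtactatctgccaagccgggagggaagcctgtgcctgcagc

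Fcgr3 (chr1:171059354-171059653, minus strand): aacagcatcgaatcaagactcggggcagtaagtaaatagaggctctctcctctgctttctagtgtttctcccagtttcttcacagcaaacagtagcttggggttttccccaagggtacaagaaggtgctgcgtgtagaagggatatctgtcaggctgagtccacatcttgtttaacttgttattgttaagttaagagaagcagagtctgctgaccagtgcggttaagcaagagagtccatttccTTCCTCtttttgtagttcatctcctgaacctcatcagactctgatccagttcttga

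Fcer1g (chr1:171234300-171234599, minus strand): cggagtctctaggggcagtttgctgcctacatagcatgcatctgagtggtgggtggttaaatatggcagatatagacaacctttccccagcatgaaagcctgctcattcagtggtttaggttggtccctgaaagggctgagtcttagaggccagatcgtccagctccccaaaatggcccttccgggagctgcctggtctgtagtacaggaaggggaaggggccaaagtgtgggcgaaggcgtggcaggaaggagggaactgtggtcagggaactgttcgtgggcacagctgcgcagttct

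The capitals begin 55 bases before the start in *Fcgr1* and 6 bases before it in *Fcgr3*, both read on the opposite strand. Around them the 2 windows share a run of 14 bases, the longest shared by any pair of these genes. In Hox-URE *Fcgr1* had 0 counts and *Fcgr3* stood at 104 to 156 CPM. *Fcgr2b*, without the letters, was near 0 there, and *Fcer1g*, also without them, was at its highest. These 4 genes were picked for their levels, so nothing about the letters can be read from them. Of the other genes, *Fcgr4* and *Syk* hold the letters and were called lower in Hox-URE, and *Fcgrt* does not and was not called there. The RUNX-type letters occurred in *Fcgr4* and *Fcer1g*, and in 16.8% of all windows.

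*Fcer1g*, the γ chain that activating IgG receptors and the IgE receptor share, was called higher in Hox-URE, alone among the 8 genes. Its CPM were 110, 144 and 151 in Hox-WT, 262, 371 and 386 in Hox-URE and 142, 110 and 116 in URE-AML. All Hox-URE libraries lay above all others, and the other lines overlapped. The log2 fold change in Hox-URE was 1.33 ± 0.17 against Hox-WT (adjusted p = 0.000127), and URE-AML fell by 1.47 ± 0.17 against Hox-URE (adjusted p = 5.12e-05). URE-AML against Hox-WT gave -0.14 ± 0.17 (95% interval -0.52 to 0.25, adjusted p = 0.528). *Cpa3* and *Prss34*, mast cell and basophil genes, were also at their highest in Hox-URE (768 to 4434 and 442 to 1084 CPM), and their part in the level of *Fcer1g* was not tested. Of the same 10 markers, *Fcer1a*, *Tpsb2*, *Cma1* and *Mcpt4* stayed at or under 3 counts in each Hox-URE library.

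*Tyrobp*, the other ITAM adaptor (chr7:30413760-30417585, plus strand), went the other way. It had 543, 761 and 678 counts in Hox-WT, 1, 0 and 0 in Hox-URE and 9, 3 and 24 in URE-AML. The UREd/d lines did not overlap Hox-WT, and URE-AML library 3 held most of the reads of its line. The ratio of counts put Hox-URE 1688-fold below Hox-WT (303 to 66690, adjusted p = 1.27e-06). URE-AML fell by 5.50 ± 0.45 on the log2 scale against Hox-WT (adjusted p = 2.84e-06) and was 37.1-fold higher than Hox-URE (6.24 to 1505, adjusted p = 0.00304). Without URE-AML library 3 the fitted values were -6.48 against Hox-WT and 3.80 against Hox-URE, and both stayed called. Without Hox-URE library 1, which held the only read of its line, Hox-URE was at 0 counts and the folds become bounds: at least 170.5-fold lower than Hox-WT (adjusted p = 1.05e-05), with URE-AML at least 3.69-fold higher than Hox-URE (adjusted p = 0.00947).

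*Syk* (chr13:52583173-52648792, plus strand) encodes the kinase that docks on phosphorylated ITAMs. Its CPM were 191, 198 and 198 in Hox-WT, 4.33, 5.76 and 3.83 in Hox-URE and 3.27, 6.04 and 13.9 in URE-AML. Every UREd/d library lay far under every Hox-WT library, and the UREd/d lines overlapped. *Syk* fell by 5.39 ± 0.44 on the log2 scale in Hox-URE (adjusted p = 5.22e-06) and by 4.66 ± 0.42 in URE-AML (adjusted p = 6.39e-06). URE-AML against Hox-URE gave 0.73 ± 0.41 (95% interval -0.19 to 1.65, adjusted p = 0.157). URE-AML library 3 weighed on these values: without it the log2 fold change was -5.40 against Hox-WT and -0.01 against Hox-URE, and without URE-AML library 1 the latter was called (1.11, adjusted p = 0.0136).

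*Fcgrt* (chr7:45092990-45103851, minus strand), the neonatal Fc receptor gene, was low in the Hox lines. It had 11, 31 and 24 counts in Hox-WT, 13, 39 and 57 in Hox-URE and 104, 113 and 74 in URE-AML. URE-AML lay above all Hox libraries and the Hox lines overlapped. URE-AML exceeded Hox-WT by 2.43 ± 0.58 on the log2 scale (adjusted p = 0.00463). Against Hox-URE it missed the threshold, at 1.37 ± 0.55 (adjusted p = 0.0554), although the libraries did not overlap, as in 31.8% of all genes tested in that direction. It was called without Hox-URE library 3 (2.03, adjusted p = 0.0128) and with the libraries of equal number as blocks (1.58, adjusted p = 0.0281). Hox-URE against Hox-WT gave 1.06 ± 0.59 (-0.25 to 2.36, adjusted p = 0.155), which became 1.504 and was called without Hox-URE library 1 (adjusted p = 0.0153) and was 0.39 without Hox-URE library 3.

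Per kilobase of transcript the order of the genes could be compared within a line, if the counts were not already scaled for length before deposit, which is not given in the sources used here. In Hox-WT *Fcer1g* led at 199 ± 31.9 CPM per kilobase (SD, n = 3), followed by *Fcgr3* at 106 ± 10.6. *Fcgr2b* (44.5 ± 2.71), *Tyrobp* (40.7 ± 5.88) and *Syk* (38.1 ± 0.764) came next. *Tyrobp* overlapped both, while every library had more *Fcgr2b* than *Syk*. *Fcgr1* (3.01 ± 0.547), *Fcgrt* (0.660 ± 0.295) and *Fcgr4* (0.573 ± 0.0749) were last, the final pair within their spread. *Fcer1g* and *Fcgr3* also led in both UREd/d lines. In Hox-URE they stood at 501 ± 99.7 and 100.05 ± 19.8 CPM per kilobase, and the third, *Fcgrt*, was at 1.40 ± 1.03, within its spread of *Syk* at 0.906 ± 0.195. In URE-AML *Fcer1g* (181 ± 24.4) and *Fcgr3* (86.8 ± 10.8) were followed by *Fcgr2b* (11.1 ± 1.76) and *Fcgrt* (3.58 ± 0.927), while *Syk* (1.51 ± 1.08), *Fcgr4* (1.20 ± 0.236) and *Tyrobp* (0.882 ± 0.795) did not differ beyond their spread.

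*Fcgr2b*, *Fcgr4*, *Fcgr3* and *Fcer1g* lie in this order within 275749 bases of chromosome 1 (chr1:170958617-171234365, GRCm38), so their neighbours were read in the same way. Of the 10 genes on each side, 14 were tested. In Hox-URE against Hox-WT 5 of these were called higher and 0 lower. URE-AML gave 5 higher and 1 lower against Hox-WT and 3 higher and 3 lower against Hox-URE. These shares are close to the 37.2, 43.2 and 42.7% called among all genes tested. All 5 that were higher in Hox-URE lay on the *Fcgr2b* side: *Sh2d1b1*, *Gm7694*, *Nos1ap*, *Olfml2b* and *Atf6*. That position was noticed in the values and was not tested. *Olfml2b*, for example, stood at 2.74, 51.1 and 17.99 CPM across Hox-WT, Hox-URE and URE-AML. Between *Fcgr3* and *Fcer1g*, 5 of 7 genes were tested, a set added after the values were seen. Against Hox-WT, Hox-URE gave 2 higher and 0 lower calls, and URE-AML gave 1 higher and 3 lower. Set against Hox-URE, URE-AML had a call in all 5, of which 1 was higher and 4 lower, beside 42.7% of all genes tested. With Hox-WT as the reference, *Pcp4l1* (5.41, 24.97 and 0.0135 CPM) and *Apoa2* (0.489, 1.96 and 0 CPM) were higher in Hox-URE and lower in URE-AML, *Cfap126* (1.29, 2.51 and 0.297 CPM) was lower in URE-AML, and *Sdhc* (119, 171 and 265 CPM), a subunit of mitochondrial complex II, was higher there.

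**Figure D4:**
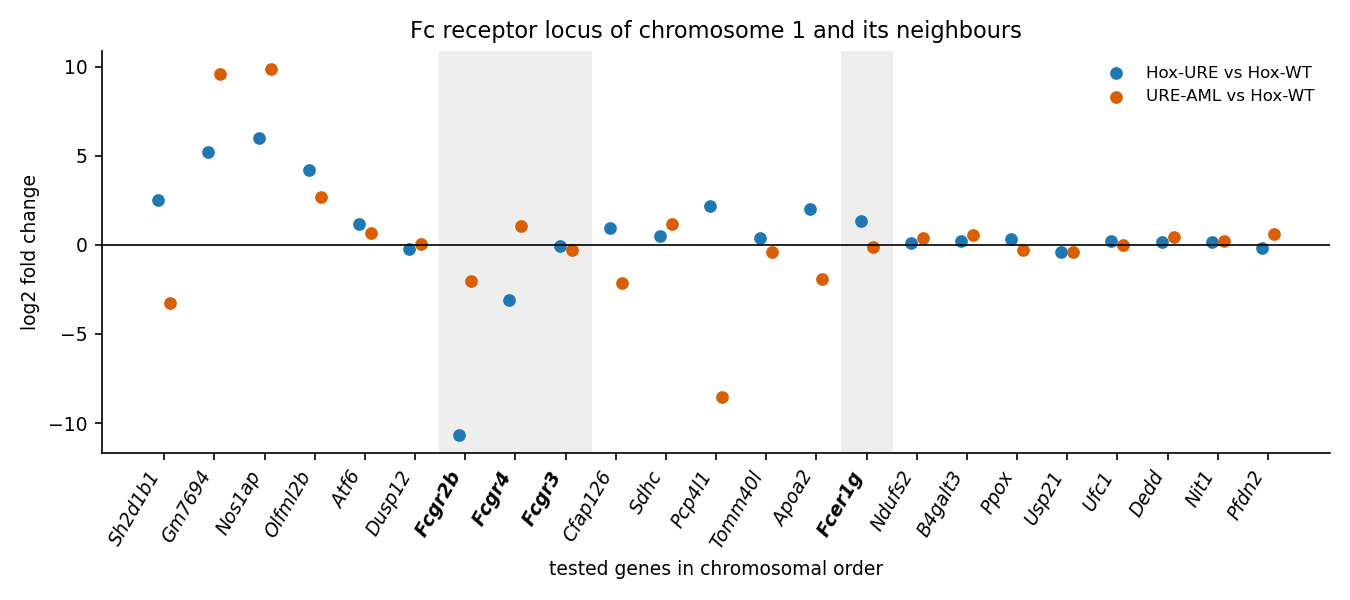
Log2 fold change against Hox-WT of the tested genes of the chromosome 1 locus, in chromosomal order (blue, Hox-URE; orange, URE-AML; grey bands and bold names mark the Fc receptor genes). Where a line had 0 to 3 counts per library the point is a bound or a ratio of counts. *Fcgr2b* is the lowest blue point and *Fcgr3*, in the same grey band, is close to 0 in both comparisons.

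The wider pathway was followed in 85 genes on 5 lists, of which 61 were tested. In Hox-URE against Hox-WT 19 were called higher and 18 lower. URE-AML gave 17 higher and 20 lower against Hox-WT and 16 higher and 26 lower against Hox-URE. That is 60.7, 60.7 and 68.9% of the genes tested on these lists, against 37.2, 43.2 and 42.7% of all genes tested. On the log2 scale their median change was 0.13, 0.01 and -0.32 in the 3 comparisons. Some of these genes passed the filter on low counts only through a line where they are high. Examples are *Ptprc* (Hox-WT), *Siglec15* (Hox-URE) and *Yes1* (URE-AML). The shares called therefore describe the genes and are not support for a change of the pathway. Calls by direction among all genes tested serve as the background for each list, with Hox-WT as the reference. They were 21.3% up and 15.9% down for Hox-URE, while URE-AML had 23.0% up and 20.2% down. The lists differed in make-up, as given next.

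Among the Src family and other kinases and phosphatases of the ITAM step, 2 of 10 tested genes went up and 5 went down in Hox-URE, and 2 were higher and 7 lower in URE-AML, both against Hox-WT. *Ptprc*, which encodes CD45, the phosphatase that opens Src family kinases and a marker of nearly all blood cells, stood at 158 ± 10.2 CPM in Hox-WT, at 0 in all Hox-URE libraries (at least 1225-fold lower, adjusted p = 1.17e-08) and at 0 to 0.0429 CPM in URE-AML. *Btk* stood at 98.5 ± 5.86, 29.01 ± 24.7 and 0.723 ± 0.529 CPM and *Fyn* at 33.9 ± 2.87, 16.8 ± 1.05 and 2.76 ± 0.433 CPM, both called lower in each UREd/d line. The Hox-URE libraries were far apart for *Btk*, at 4.99 to 54.3 CPM, and its call there (log2 fold change -1.77 ± 0.61, adjusted p = 0.0319) was lost without Hox-URE library 2 (adjusted p = 0.0854) and without Hox-WT library 1, 2 or 3 (0.0578, 0.0674 and 0.0678). Without Hox-URE library 3 the value was -2.60, and without URE-AML library 3 *Btk* in URE-AML moved from -7.08 to -7.87, both called. The kinase genes did not all go down. *Tec* was higher in Hox-URE (135 ± 27.6 against 34.6 ± 3.53 CPM) but lower in URE-AML (12.6 ± 1.33 CPM), and *Lyn*, the Src family kinase that starts Fc receptor signalling in mast cells, was not called in any comparison (46.6 ± 3.47, 62.5 ± 16.0 and 52.2 ± 10.7 CPM).

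The list of receptors that pair with *Fcer1g* or *Tyrobp*, which also holds the adaptor *Hcst*, had 9 of 20 genes tested, of which 6 were higher and 1 lower in Hox-URE, and 5 higher and 1 lower in URE-AML. Without *Hcst* the higher ones were 5 and 4 of 8. In Hox-URE these included *Siglec15*, with 0 counts in Hox-WT and 14 to 19 per library in Hox-URE (at least 6.22-fold higher), and *Cd300lb* (0.582 ± 0.242 CPM in Hox-WT and 37.1 ± 7.57 in Hox-URE, log2 fold change 5.98 ± 0.32). They also included the *Fcer1g*-paired lectins *Clec4d* (19.6 ± 5.79 and 68.5 ± 40.2) and *Clec4e* (125 ± 14.8 and 272 ± 34.2), the last of which was called lower in URE-AML (70.6 ± 17.5 CPM). In URE-AML they included the *Tyrobp*-paired receptors *Clec5a* (66.8 ± 23.8 CPM against 2.34 ± 0.440 in Hox-WT), *Trem1* (85.8 ± 23.4 against 21.3 ± 2.26) and *Trem3* (59.0 ± 20.2 against 11.3 ± 1.39), the last of which was called lower in Hox-URE (3.58 ± 0.318 CPM). These receptors were thus called higher in a line where *Tyrobp* itself stood at 0.143 to 1.03 CPM. *Trem1* was also called higher in Hox-URE (33.0 ± 5.87 CPM, log2 fold change 0.63 ± 0.20), where *Tyrobp* had 0 to 1 counts per library. *Hcst* (DAP10), an adaptor that can stand beside *Tyrobp*, was higher in both UREd/d lines, at 3.93 ± 1.51, 6.89 ± 1.61 and 17.8 ± 1.89 CPM. Its call in Hox-URE was lost without Hox-URE library 2 or 3 (adjusted p = 0.103 and 0.105), Hox-WT library 1 or 2 (0.0904 and 0.0719) or URE-AML library 2 (0.0512), and without Hox-URE library 1 the log2 fold change of *Clec4d* went from 1.81 to 1.21, still called.

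Of the 26 effectors below *Syk*, all tested, 5 were higher and 10 lower in Hox-URE, and 5 higher and 9 lower in URE-AML. *Card9*, which links SYK to NF-κB, stood at 39.9 ± 3.76 CPM for Hox-WT, 0.824 ± 0.116 for Hox-URE and 51.0 ± 7.002 in URE-AML, and was called lower in Hox-URE alone (log2 fold change -5.60 ± 0.17). Of the membrane adaptors, *Lat* rose to 35.4 ± 7.08 CPM in Hox-URE from 1.64 ± 0.308 in Hox-WT, and *Lat2* stood at 54.9 ± 7.73, 18.4 ± 0.989 and 0.530 ± 0.182 CPM in the 3 lines. *Lcp2* (SLP-76) rose in both, at 10.1 ± 1.13, 40.6 ± 7.88 and 174 ± 13.4 CPM. Of the 3 Vav guanine exchange factor genes, *Vav2* (36.5 ± 0.645, 11.3 ± 1.64 and 4.70 ± 0.755 CPM) and *Vav3* (61.8 ± 5.19, 39.2 ± 4.87 and 17.7 ± 3.21 CPM) were called lower in each UREd/d line, and *Vav1*, with the highest CPM of them (180 ± 3.65, 168 ± 12.4 and 192 ± 15.4), was not called in any comparison. Without Hox-URE library 1, *Vav3* in Hox-URE was under the 1.5-fold threshold (-0.57).

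Of the 13 inhibitors of ITAM signalling, all tested, 5 were higher and 2 lower in each UREd/d line against Hox-WT. *Inpp5d*, which encodes SHIP1, the phosphatase that FCGR2B recruits, was higher in Hox-URE (421 ± 25.9 against 261 ± 18.1 CPM, log2 fold change 0.69 ± 0.09, adjusted p = 0.000169), the line in which *Fcgr2b* was at 1 count per library. In URE-AML it was at 263 ± 18.6 CPM and not called. *Dok2*, an adaptor that damps Ras signalling, was higher in both (10.9 ± 1.44, 59.3 ± 5.12 and 80.6 ± 8.64 CPM), and *Cbl*, a ubiquitin ligase of SYK, was lower in both (110 ± 18.1, 69.7 ± 9.14 and 44.6 ± 1.19 CPM). Without Hox-URE library 3 or Hox-WT library 1 *Cbl* in Hox-URE was under the 1.5-fold threshold (log2 fold change -0.56 and -0.57).

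**Figure D5:**
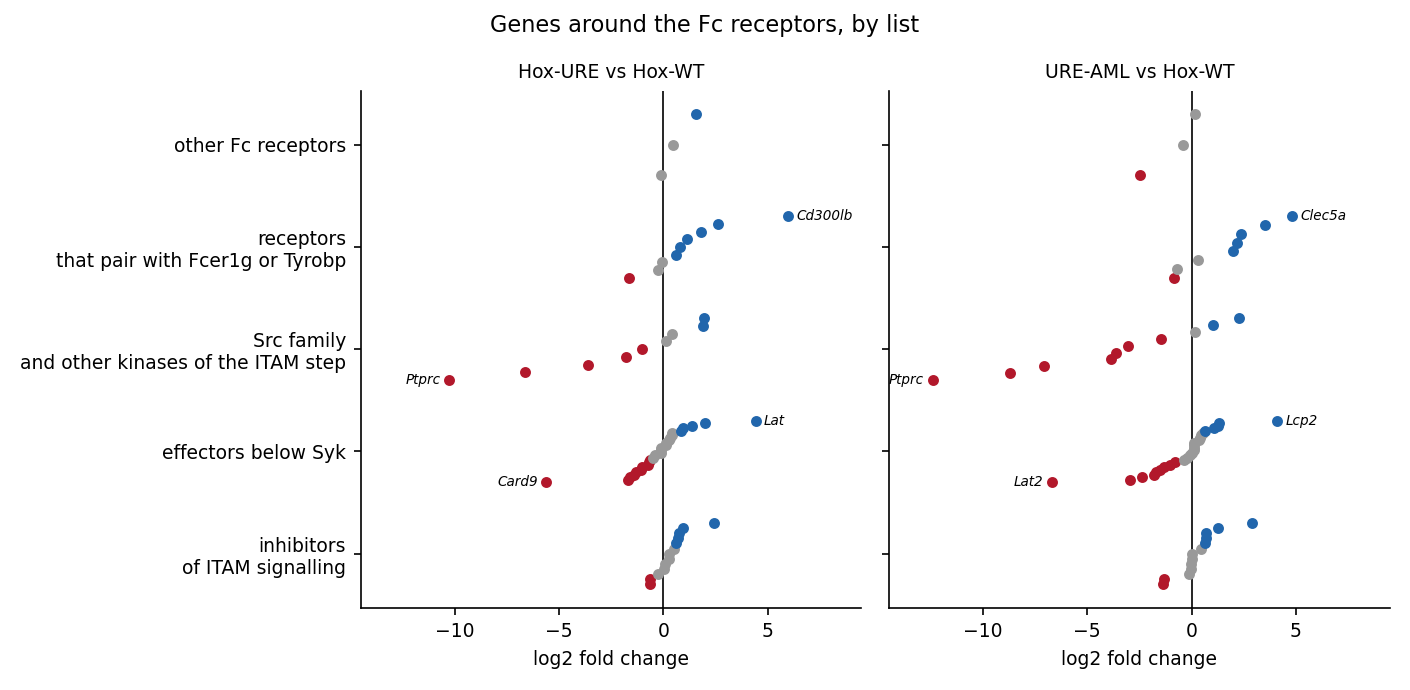
Log2 fold change against Hox-WT of the 61 tested genes of the 5 pathway lists (blue, called higher; red, called lower; grey, not called), with the name of the lowest and highest gene of a list where its value is beyond 4 in either direction. Where a line had 0 to 3 counts per library the point is a bound or a ratio of counts, and genes with both lines at that level are left out. Within most lists points lie on both sides of 0.

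The genes whose pattern over the 9 libraries was most like each of the 8 genes were found by the root-mean-square (RMS) difference of gene-centred log2 CPM (prior count of 2, on which the distance depends where a gene is near 0 counts), among 11426 genes with a mean of at least 1 CPM. *Fcgr1* was closest to *Sox13* (RMS 0.14), *Gm49760* (0.16) and *Cacnb2* (0.27), each with counts in Hox-WT and 0 in both UREd/d lines. *Tyrobp* was closest to *Igsf6* (0.48), *Cd33* (0.65) and *Antxr2* (0.73). *Cd33*, a sialic acid receptor of myeloid cells, stood at 332, 1.25 and 8.10 CPM in the 3 lines. *Fcer1g* was closest to *Lgals1* (0.13), *Cuedc1* (0.13) and *St3gal1* (0.15), and *Fcgr4* to *Rab32* (0.21), *Ccdc91* (0.21) and *Prtn3* (0.24). *Prtn3*, a protease of neutrophil primary granules, stood at 587, 126 and 1082 CPM, and *Fcgr4* at 0.719, 0.0908 and 1.503 CPM. *Fcgr2b* was closest to *Stk26* (0.55), *Pkp4* (0.73) and *Tpm4* (0.85), and *Fcgrt* to *C9orf72* (0.48), *P2rx1* (0.50) and *Hcst* (0.52). The genes ranked first for *Syk* (*Clec4a2*, *Stfa1* and *Lin28a*) stood at 0 to 0.148 CPM in the UREd/d lines, where *Syk* was at 4.64 and 7.74 CPM, so their distance is set by the prior count and is not given. *Fcgr3*, with little difference between lines, was closest to *Lrrk1* (0.09), *Wdr53* (0.10) and *Ccdc32* (0.11).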

How the data were processed

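Poly-A RNA of 9 libraries from 3 lines, 3 per line, was sequenced from stranded libraries. The authors estimated counts per transcript with Salmon and deposited them as estimated counts for each gene, in whole numbers, on the GRCm38 transcriptome. The release, and whether the counts were scaled for transcript length, are not given in the sources used here. All 9 columns were used. Coordinates and transcript lengths came from GENCODE M21 and promoters from RefSeq. Lines came from the sample labels. The filterByExpr filter, at a minimum count of 10, left 13082 genes and set aside 0.0499% of counts. The model was fitted to all 9 libraries in edgeR 4.0.16 (R 4.3.3), with TMM scaling (common biological coefficient of variation 0.173) and line as the only factor. Two-sided quasi-likelihood F tests were adjusted by Benjamini-Hochberg over all genes tested. Each SE was obtained from the log2 fold change and F, as their ratio |log2|/sqrt(F). A fold against a line at 0 counts is a bound, with 3 counts per library as the floor. Against a line with at most 3 counts in each library it is the ratio of counts with an exact 95% interval.

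The 8 genes, the pathway lists and the marker lists were chosen with earlier results of these data known. The text names the 8 genes, *Spi1*, every other Fc receptor, any marker, the 3 genes most like each of the 8, and up to 6 called genes per pathway list and comparison with the largest change. *Lyn*, *Vav1*, *Fyn*, *Vav3* and *Trem1* in Hox-URE, *Inpp5d* in URE-AML and the neighbours on chromosome 1 are named beyond that rule, after their values were seen. Some genes the rule covers are not reported here. On simulated data with 12753 genes the edgeR fit recovered 90 of 110 genes changed by 1 on the log2 scale and 88 of 90 changed by 2, with 11 false calls, for Hox-URE against Hox-WT. Alternatives were other scalings and filters, DESeq2 1.42.0, a replicate block, other fold change rules and leaving out each library.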

Additional observations from a re-analysis of the deposited data

How the results depend on the processing

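Under the alternatives for the log2 fold changes of the 8 genes, 427 of 442 values stayed on their side of the threshold, 7 lost a call, 8 gained one and 0 called values turned sign. With at least 10 counts in every library, only 4 of the 8 genes could be tested, and the number called was 2 in each comparison in place of 6, 6 and 4. The same filter left 2, 3 and 3 neighbours called in place of 5, 6 and 6, and with no fold change threshold 11 neighbours were called in URE-AML against Hox-WT. With glmTreat, which tests against a 1.5-fold change, there were 24 pathway genes called in Hox-URE against Hox-WT in place of 37. With each library left out in turn, the 8 genes gave 6 to 7, 5 to 6 and 4 to 5 calls, the pathway genes 31 to 38, 34 to 38 and 40 to 44, and the neighbours 5, 5 to 7 and 6 to 7. The *Fcgr2b* share then ranged from 31.8 to 33.2% for Hox-WT, 0.0314 to 0.0338% for Hox-URE and 12.4 to 13.02% for URE-AML, and with counts scaled by transcript length it was 29.6%, 0.0284% and 11.3%. *Fcgr4* in URE-AML against Hox-WT also lost its call with no filter on low counts (adjusted p = 0.0786) and with glmTreat (0.120). Its adjusted p ranged from 0.0144 to 0.120 over the alternatives. *Fcgrt* in URE-AML against Hox-URE was also called by DESeq2 (0.0365), with library size only (0.0368), with no filter (0.0214) and with at least 10 counts in every library (0.0395), over a range of 0.0128 to 0.157. Libraries of the same number deviated together with r of 0.0995 to 0.271 between Hox-URE and Hox-WT and of 0.0100 to 0.0923 in the other pairs of lines. Libraries of different number gave -0.211 to 0.0659 and -0.0895 to 0.0399. Between Hox-URE and Hox-WT every same-number value was thus the higher. What libraries of 1 number have in common is not given in the sources used here, and the main fit took no pairing. With the replicate block, 6, 6 and 5 of the 8 genes were called, the fifth being *Fcgrt* (1.58), and no other call of the 8 genes changed. Depth limits *Fcgr2b*, *Fcgr4* and *Tyrobp* in Hox-URE, where single reads move the values.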

Other observations

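Of the 13 other Fc receptor genes and partners, 3 were tested: *Ms4a2*, *Trim21* and *B2m*. *B2m*, the partner chain of FCGRT and of MHC class I, stood at 180 ± 70.3 CPM for Hox-WT, 532 ± 269 for Hox-URE and 137 ± 22.4 for URE-AML (mean ± SD, n = 3). It rose by 1.56 ± 0.39 on the log2 scale in Hox-URE against Hox-WT (adjusted p = 0.00711) and was not called in URE-AML against Hox-WT (-0.39 ± 0.39, adjusted p = 0.411), where *Fcgrt* was higher. *Ms4a2*, the β chain of the IgE receptor, stood at 3.62 ± 1.56, 5.08 ± 3.05 and 0.658 ± 0.538 CPM and was lower in URE-AML (log2 fold change -2.47 ± 0.77, adjusted p = 0.0184), a call lost without Hox-WT library 1 (-2.07, adjusted p = 0.0627). *Trim21*, a cytosolic antibody receptor, stood at 9.61 ± 1.10, 8.88 ± 0.935 and 10.6 ± 1.16 CPM and was not called in any comparison.

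The other 10 were too low to be tested. *Fcer1a* had 0 counts in all 6 Hox libraries and 0 to 10 in URE-AML, so the γ chain was at its highest in a line with no read of the IgE-binding chain. *Fcrl1*, an Fc receptor-like gene of B cells, had 10 to 26 counts per Hox-WT library and 0 in both UREd/d lines. *Fcrlb* and *Fcrl5* went the other way, with 6 to 13 and 3 to 10 counts in URE-AML, 0 in Hox-WT and, in Hox-URE, 0 and at most 1. *Fcmr*, *Fcamr* and *Fcrl6* had 0 counts in all 9 libraries, and *Fcer2a*, *Pigr* and *Fcrla* stayed at or under 3 counts in each.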
